A study of Homo sapiens with 8 samples.

Results

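H460R cells are the descendants of H460 cells, an established human non-small-cell lung cancer line, that outlived 1 exposure to cisplatin at 0.5 μg/ml for 72 h and then grew without the drug. They are a mixed population of survivors and not a clone. The 4 arrays of 8 in the series whose titles name H460R were taken. They hold 2 RNA samples of H460R, each hybridized in both dye orientations against RNA of parental H460 cells that had not received cisplatin. Of 41000 probes on the array, 24005 were kept because their signal was well above background in every H460R channel or in every H460 channel of these arrays. H460R and H460 were both grown in RPMI with 10% foetal bovine serum. The other 4 arrays hold H460C, stem-like cells that were derived from H460 and grown without attachment in a defined DMEM/F12 medium, and they are used here only for values set beside those of H460R. H460C had no recorded cisplatin exposure. The interval between the end of the cisplatin exposure and RNA isolation was not given in the sources used here.

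Cisplatin binds purine bases and forms crosslinks within and between DNA strands. Cells answer with arrest and death programs that p53 drives, and they can lose sensitivity through lower uptake, through metal-binding proteins and glutathione, through adduct repair or through a raised threshold for death. The genes of these pathways were grouped into lists, together with lists for signalling, amino acid supply, secreted factors and differentiation state. All values below are log2 ratios of H460R over H460, where 1 is a doubling, and are given as the mean ± SD of the 2 RNA samples after each dye-swap pair was averaged.

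Both H460R samples were compared with a single H460 RNA, so the ratio carries no spread of the parental line. The labels call the 2 samples biological replicates without describing separate cultures, and an SD or SE here therefore measures only the spread between these samples. The false discovery rate (FDR) of Rank Products rests on a gene's ranks in the 2 samples and does not use its SD. It takes these ranks as independent, although both samples share the H460 RNA. The 2 samples had correlated ratios across 23713 probes (r = 0.96, a description across probes, which share the H460 RNA). Arrays of opposite dye orientation were less alike, with r = 0.63 in sample 1 and 0.59 in sample 2, against 0.94 to 0.96 between arrays of like orientation. Precision is limited by the number of arrays. In H460R, 3 of 6 markers of lung carcinoma epithelium (KRT8, KRT18 and KRT19) were above background on all 4 arrays, with EPCAM above it on 3 of 4. CDH1 was above background on none in either line. The leukocyte markers PTPRC and LYZ, the endothelial markers PECAM1 and TEK and the fibroblast marker COL1A2 were above background on none of the 4 H460R channels. The leukocyte markers CD3E, CD14 and CD68, the endothelial marker VWF and the fibroblast markers COL3A1, DCN, LUM and PDGFRB were above it on all 4, and in H460 on 3 or 4. Their part in the results was not tested.

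Of 18667 genes and unnamed transcripts, each read at its brightest kept probe, 98 were called higher in H460R than in H460 and 95 lower by Rank Products at an FDR of 0.05. That is a background of 0.525% higher and 0.509% lower. A symbol was available for 67 of the genes called higher and 62 of those called lower. All 193 called genes had 1 sign on all 4 arrays, against 60.1% of all genes. The calls were made on these same arrays, so this is no separate support for them. The median gene stood at −0.03. These ratios come from bulk RNA, in which fewer cells carrying a transcript and less transcript per cell cannot be told apart.

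**Figure D1:**
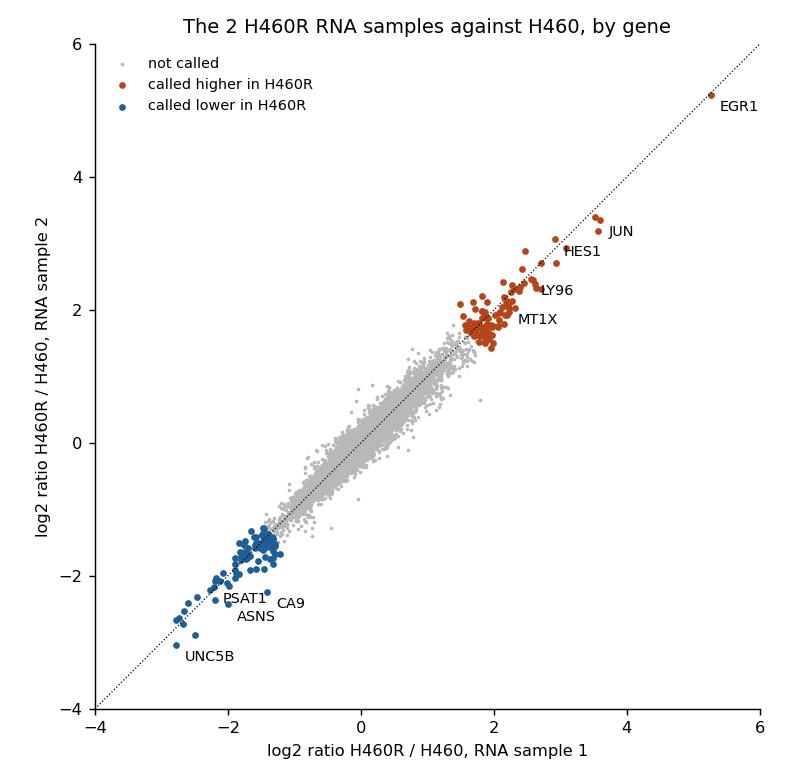
Log2 ratio of H460R over H460 in RNA sample 1 (x axis) and in RNA sample 2 (y axis), 1 point per gene, with genes called higher in orange, genes called lower in blue, the rest in grey and equality as a dotted line. EGR1 sits apart from all other genes at 5.25, and UNC5B is the lowest called gene at −2.91.

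EGR1, JUN and FOS, transcription factors that cells make within minutes of a growth or stress signal, were upregulated in H460R. EGR1, a zinc-finger factor, had the highest ratio of all genes. It read 5.01 and 5.52 on the arrays of sample 1 (H460R in Cy3, then in Cy5) and 4.99 and 5.48 on those of sample 2, so all 4 arrays lay far above 0. Its mean was 5.25 ± 0.02 (SD, n = 2), or 38.1-fold (Rank Products FDR = 4.22e-05, exact distribution). JUN, a subunit of the AP-1 factor, read 3.90 and 3.29 in sample 1 and 3.67 and 3.03 in sample 2. This was 11.1-fold higher than in H460 (3.47 ± 0.17, FDR = 0.000281). Its AP-1 partner FOS read 2.62 and 2.80, then 2.58 and 2.82, and was 6.52-fold higher (FDR = 0.00226). All 3 genes were above background in both lines on all 4 arrays, and no array showed H460R at or below H460.

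Of 35 immediate early genes listed, 31 were tested, EGR1, JUN and FOS were the 3 called higher (9.68%) and the median was 0.13. Limma on the 2 ratios called 16 of them higher and 8 lower, but it also called 6208 higher and 6823 lower of all 18667 genes. FOSB stood at 0.81 ± 0.21, JUNB at −0.04 ± 0.07, FOSL1 at −0.13 ± 0.04 and FOSL2 at −0.80 ± 0.08. IER3 (1.52 ± 0.15) and the nuclear receptor NR4A2 (1.20 ± 0.16) did not pass the test. The feedback genes of the pathway stood near 0, with 0 of 9 called and a median of −0.02, among them the phosphatases DUSP1 (0.62) and DUSP6 (−0.23). KLF2, a Krüppel-like factor, was called lower at −2.28 ± 0.11 (FDR = 0.00231), but its other probe read −0.35 and was not called.

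EGR1 is a textbook target of serum response factor, which binds CArG boxes (CCWWWWWWGG, where W is A or T). The 250 bases before its start of transcription are shown because EGR1 leads the profile, from RefSeq on GRCh38.p14, chr5:138465229-138465478 on the plus strand, with the CArG boxes in capitals.
EGR1: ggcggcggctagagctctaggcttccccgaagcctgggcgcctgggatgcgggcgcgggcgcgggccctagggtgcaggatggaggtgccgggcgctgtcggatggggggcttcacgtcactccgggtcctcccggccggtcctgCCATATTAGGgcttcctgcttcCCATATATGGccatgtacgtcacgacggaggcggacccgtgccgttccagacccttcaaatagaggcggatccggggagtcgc
The nearer of the 2 boxes begins 83 bases before the start. A CArG box occurred on either strand in 1.16% of 35116 promoter windows of this length. Each of the 4 called genes of the immediate early list had a window. That of EGR1 held a match, and those of JUN, FOS and KLF2 held none. Bases farther than 250 before the start were not searched.

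Metallothioneins, small cysteine-rich proteins that bind zinc, copper and platinum, were upregulated together. MT1X read 2.19 and 2.26 in sample 1 and 2.03 and 2.04 in sample 2 (2.13 ± 0.13, 4.38-fold, Rank Products FDR = 0.0110, exact distribution). MT1B read 2.35 and 2.30, then 2.19 and 1.88 (2.18 ± 0.21, 4.53-fold, FDR = 0.00868). MT1G (2.13 ± 0.09), MT1E (2.10 ± 0.19) and MT1H (2.06 ± 0.19) followed, and these 5 genes did not differ beyond their SDs. MT2A, the most widely expressed member, read 1.18 and 2.56, then 1.15 and 1.84 (1.68 ± 0.27, FDR = 0.0433), and its H460R signal was saturated on 3 of 4 arrays. MT1A stood at 1.43 ± 0.02 and missed the threshold (FDR = 0.0897), and MT3, the brain form, stood at −0.08 ± 0.17. MT1F, MT1M and MT4 were not above background.

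Over the metallothioneins, 6 of the 8 tested were called higher, against 0.525% of all genes. The members have near-identical coding sequences, so their probes may read each other and the 6 calls are not independent. None of the 4 genes for the zinc sensor and zinc transporters was called, with MTF1, the metal-responsive factor, at 0.86 ± 0.14, the exporter SLC30A1 at 0.58 ± 0.04 and the importer SLC39A10 at −1.14. On the scanner software's own log ratios none of the 6 metallothionein calls was kept, although MT1B, MT1H and MT1X still read 2.10 to 2.26.

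MTF1 binds metal response elements, whose core is TGCACNC or TGCGCNC. The windows of MT1X and MT1H are shown because these genes rose together and carry repeats of the core, in capitals on either strand. MT1X is at chr16:56682220-56682469 and MT1H at chr16:56669564-56669813, both on the plus strand of GRCh38.p14, from RefSeq.
MT1X: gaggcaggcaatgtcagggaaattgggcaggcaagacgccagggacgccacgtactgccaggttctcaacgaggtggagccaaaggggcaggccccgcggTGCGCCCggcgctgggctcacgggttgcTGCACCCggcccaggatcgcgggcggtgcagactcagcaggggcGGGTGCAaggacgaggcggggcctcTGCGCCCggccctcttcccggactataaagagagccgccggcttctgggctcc
MT1H: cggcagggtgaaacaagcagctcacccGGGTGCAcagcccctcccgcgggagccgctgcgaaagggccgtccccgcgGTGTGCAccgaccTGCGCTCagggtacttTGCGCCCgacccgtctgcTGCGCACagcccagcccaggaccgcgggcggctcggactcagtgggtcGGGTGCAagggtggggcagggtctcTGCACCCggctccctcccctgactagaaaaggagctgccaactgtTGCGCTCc
MT1X held 4 cores and MT1H 8. The promoter table held windows for 4 of the 6 called metallothioneins, and all 4 matched, with 7 cores in MT2A and 3 in MT1B. At least 1 core was present in 24.8% of all windows, and 3 or more in 1.58%.

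**Figure D2:**
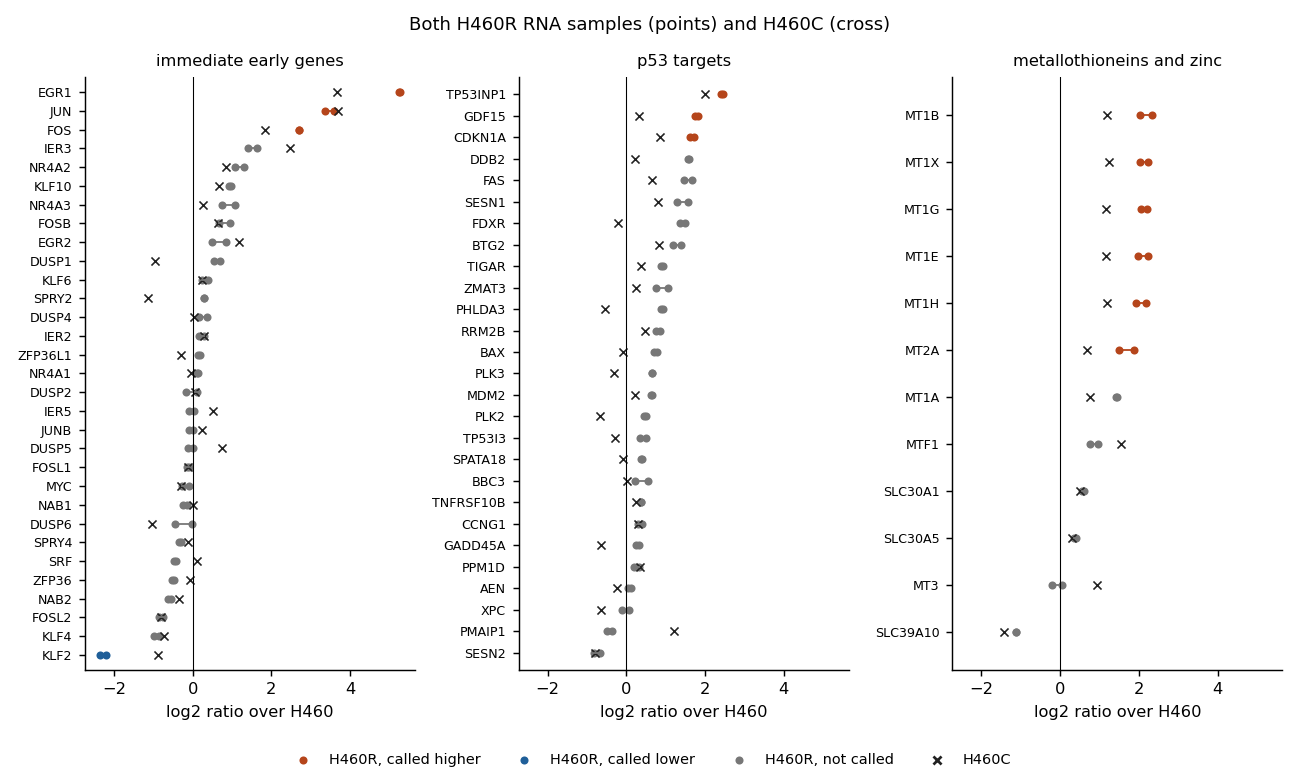
Log2 ratio over H460 (x axis) for each tested gene of the immediate early, p53 target and metallothionein and zinc lists, with both H460R samples as joined points (orange called higher, blue called lower, grey not called) and H460C as a cross. EGR1 (5.25), JUN (3.47) and FOS (2.71) stand apart from the other immediate early genes, whereas most p53 targets sit a little above 0 and 6 metallothioneins sit near 2.

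Enzymes that make serine, glycine and asparagine were downregulated. They share a program with other genes that ATF4, a factor switched on by amino acid shortage and stress of the endoplasmic reticulum, is known to drive. PHGDH, the first enzyme of serine synthesis, read −2.26 and −3.07 in sample 1 and −2.23 and −2.84 in sample 2, and was 6.06-fold lower in H460R (−2.60 ± 0.09, Rank Products FDR = 0.00078, exact distribution). PSAT1, the next enzyme, read −2.39 and −2.03, then −2.32 and −2.02, and was 4.56-fold lower (FDR = 0.00261). PSPH, the last step, stood at −1.30 and missed the threshold (FDR = 0.0648), with another probe at 0.08. The mitochondrial one-carbon enzymes SHMT2 (−1.97 ± 0.10, FDR = 0.00626) and MTHFD2 (−1.49 ± 0.12, FDR = 0.0294) were called lower, and the cytosolic SHMT1 stood at −0.26 ± 0.07.

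PCK2, the mitochondrial phosphoenolpyruvate carboxykinase, read −2.50 and −2.84, then −2.54 and −2.92, and was 6.50-fold lower (FDR = 0.00038), with another called probe at −1.68. CBS, which turns homocysteine and serine into cystathionine, was 5.25-fold lower (−2.39 ± 0.10, FDR = 0.00193). Asparagine synthetase, ASNS, read −2.27 and −1.73 in sample 1 and −2.83 and −2.03 in sample 2 (4.64-fold lower, FDR = 0.00261). The samples therefore differed more for ASNS (SD 0.30) than for PSAT1 (SD 0.03), and all 4 arrays of both genes lay below 0.

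In all, 13 of the 32 tested genes of the serine and ATF4 list were called lower (40.6%, against 0.509% of all genes), none was called higher, and the list's median was −1.20. Of these 32 genes, 29 lay below 0 (90.6%, against 53% of all genes) and 20 below −1. By role, 4 of 7 serine and one-carbon enzymes, 3 of 6 other amino acid enzymes, 1 of 7 transporters and 5 of 12 regulators and stress targets were called. The called regulators were JDP2, a repressor that dimerizes with AP-1 proteins (−2.69 ± 0.28), the stress protein NUPR1 (4.30-fold lower), CHAC1, which degrades glutathione (3.26-fold lower), the pseudokinase TRIB3 (−1.47 ± 0.22) and ATF5 (−1.46 ± 0.01). TRIB3 was saturated in H460 on 3 of 4 arrays, and its other probe read −2.34 and was called too. ATF4 itself stood at −0.53 ± 0.11 at its brightest probe, saturated in H460R on 2 arrays, and at −1.33 ± 0.25 at another (FDR = 0.0639). DDIT3, the CHOP factor, stood at −0.65, and neither gene was called. The transporter SLC7A5 was called at −1.44 ± 0.07, with another probe at −0.34 that was not. Not every member was low: the cystine transporter SLC7A11 stood at 0.96 ± 0.04 and the hormone STC2 at 1.08 ± 0.16, though other probes of them read 0.17 and 0.45. Against a minimum log2 change of 1 in limma, 16 members were called lower with both samples, 7 without sample 1 and 8 without sample 2.

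Aminoacyl-tRNA synthetases, which charge tRNAs with amino acids, were low as well. WARS1, for tryptophan, read −1.67 and −2.08, then −1.86 and −2.05, and was 3.77-fold lower (FDR = 0.00748). SARS1 for serine (−1.39 ± 0.09, FDR = 0.0458) and AARS1 for alanine (−1.38 ± 0.06, FDR = 0.049) were called near the threshold. These 3 were the calls among 19 cytosolic synthetases tested (15.8%, against 0.509% of all genes). Of the 19, 17 lay below 0 (89.5%, against 53% of all genes), with a median of −0.65. LARS1 for leucine stood at 0.92 ± 0.01 with another probe at −0.43. MARS1 for methionine stood at −1.15 at its brightest probe, and another of its probes, at −1.54, was called. In limma with either sample left out, and on the arrays with H460R in Cy3 alone, 1 synthetase was called. Outside these lists, EIF4EBP1, an inhibitor of cap-dependent translation (−2.11), and NIBAN1 (−2.14), both among the 15 genes with the smallest rank product for lower expression, were downregulated too.

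ATF4 and C/EBP proteins bind a composite element, TGATGNAA. The windows of ASNS and CHAC1 are shown because both genes were called and carry it, in capitals. ASNS is at chr7:97872409-97872658 on the minus strand and CHAC1 at chr15:40953221-40953470 on the plus strand of GRCh38.p14, from RefSeq, and the CHAC1 match is on the opposite strand.
ASNS: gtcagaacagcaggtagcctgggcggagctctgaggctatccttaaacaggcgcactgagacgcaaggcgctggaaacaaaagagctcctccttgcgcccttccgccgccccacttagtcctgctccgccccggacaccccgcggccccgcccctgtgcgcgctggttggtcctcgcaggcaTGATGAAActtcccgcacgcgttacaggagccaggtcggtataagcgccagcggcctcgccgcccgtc
CHAC1: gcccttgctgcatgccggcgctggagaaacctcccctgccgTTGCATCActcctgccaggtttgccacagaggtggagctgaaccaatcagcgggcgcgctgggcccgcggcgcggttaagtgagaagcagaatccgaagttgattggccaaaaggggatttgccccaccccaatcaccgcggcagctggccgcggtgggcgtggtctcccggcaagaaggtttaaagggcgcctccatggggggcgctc
The element starts 68 bases before the start of ASNS and 209 before that of CHAC1. It occurred in 3.14% of all windows. Of the 14 called genes of the serine and synthetase lists that had a window, 4 had a match in at least 1 (ASNS, JDP2, CHAC1 and AARS1). Some of these genes had several windows, so this count by gene cannot be set directly against the share of windows. ASNS and JDP2 also had windows without a match.

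**Figure D3:**
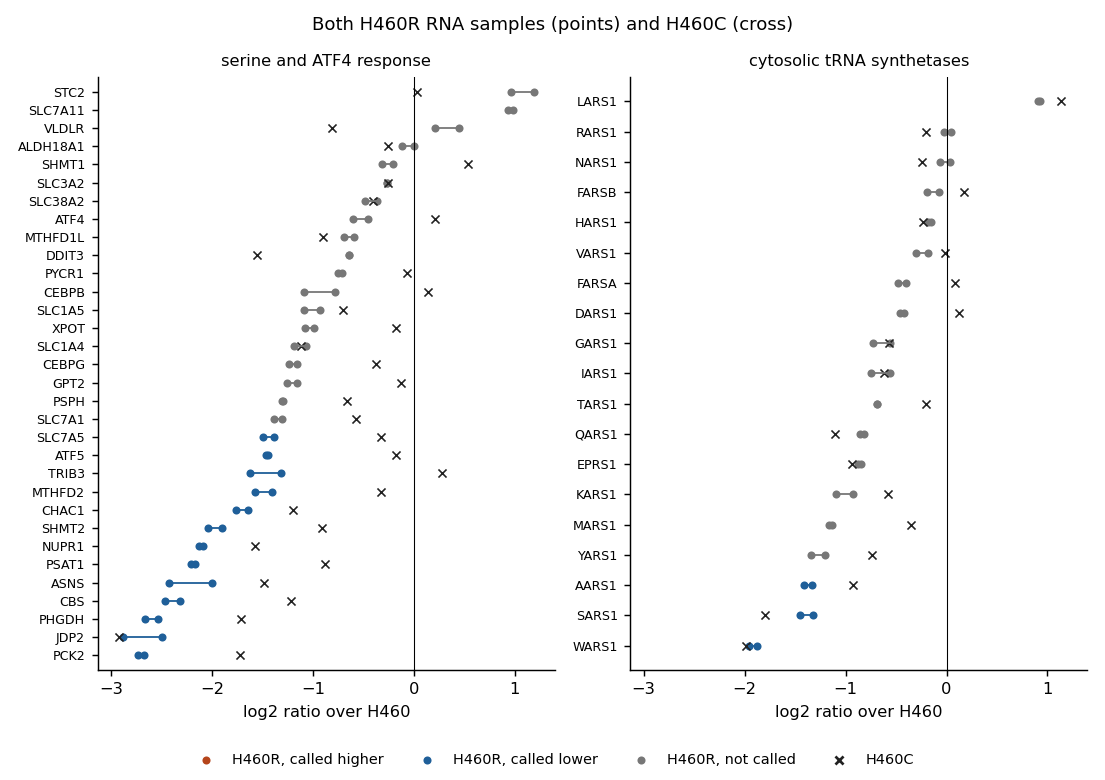
Log2 ratio over H460 (x axis) for each tested gene of the serine and ATF4 list and of the cytosolic tRNA synthetases, with both H460R samples as joined points (blue called lower, grey not called) and H460C as a cross. In H460R 13 of 32 and 3 of 19 genes were called lower, and many grey genes also lie below 0.

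Targets of p53 leaned upward with few calls. TP53INP1, a stress-induced autophagy and apoptosis protein, read 2.54 and 2.36, then 2.38 and 2.43, and was 5.38-fold higher (Rank Products FDR = 0.00338, exact distribution). CDKN1A, the p21 inhibitor of cyclin-dependent kinases, read 1.51 and 1.91, then 1.61 and 1.64 (3.18-fold, FDR = 0.0433), and another probe at 1.25 was not called. GDF15, a secreted stress cytokine, read 0.70 and 2.93, then 0.69 and 2.78. Its signal was saturated in H460R on all 4 arrays and in H460 on 2, so its 3.42-fold ratio (FDR = 0.0344) compares clipped signals. These were the 3 calls among 27 targets tested (11.1%, against 0.525% of all genes). Of the targets, 24 lay above 0 (88.9%, against 46.9% of all genes), with a median of 0.65. Of the 27, 4 passed the background filter through the H460R channel alone, which favours high ratios. The repair gene DDB2 (1.58 ± 0.02), the death receptor FAS (1.56 ± 0.13), SESN1 (1.43 ± 0.20), FDXR (1.43 ± 0.09) and BTG2 (1.29 ± 0.15) did not pass. MDM2 stood at 0.64, BAX at 0.74, and PMAIP1 (−0.43) and SESN2 (−0.74) lay below 0.

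SLFN11, a Schlafen protein that blocks stressed replication forks and is known from studies of sensitivity to DNA-damaging drugs, was downregulated. It read −2.97 and −2.51 in sample 1 and −2.57 and −2.69 in sample 2, a 6.43-fold difference (FDR = 0.00038). SLFN5, the other Schlafen gene tested, stood at −0.15 ± 0.09.

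The lists for cisplatin transport, adduct repair and the BCL2 family held no call by Rank Products. Among 13 genes of cisplatin transport none was called by Rank Products (0 at an unadjusted p under 0.05, and 5 higher and 3 lower by limma on the 2 ratios), and all lay between −0.35 and 0.54, with the copper transporter SLC31A1 at 0.06, the volume channel subunit LRRC8D at −0.35 and the export pumps ABCC1 at 0.54 and ABCC2 at 0.53. Among 32 genes of platinum adduct repair and the DNA damage checkpoint none was called (3 higher and 2 lower at an unadjusted p under 0.05, and 16 and 9 by limma). The extremes were RAD23B (−0.71 ± 0.01) and FANCI (0.96 ± 0.20), and ERCC1 of nucleotide excision repair stood at −0.55 ± 0.10. Of 25 genes of glutathione and the NRF2 response, GPX3, the secreted glutathione peroxidase, was called at 1.97 ± 0.25. It read 2.61 and 1.69, then 2.29 and 1.29, higher with H460R in Cy3 than in Cy5. HMOX1 stood at 1.24 and MGST1 at 1.08, and neither passed. Of 16 BCL2 family genes, regulators of mitochondrial death, none was called (2 higher and 1 lower at an unadjusted p under 0.05, and 5 and 7 by limma). BCL2L11 (−0.98 ± 0.01) was the lowest and BMF (0.93 ± 0.08) the highest. By these measures all genes tested held 1739 and 1736, and 6208 and 6823, higher and lower. A ratio that misses the test with 2 samples does not show that the level was equal.

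**Figure D4:**
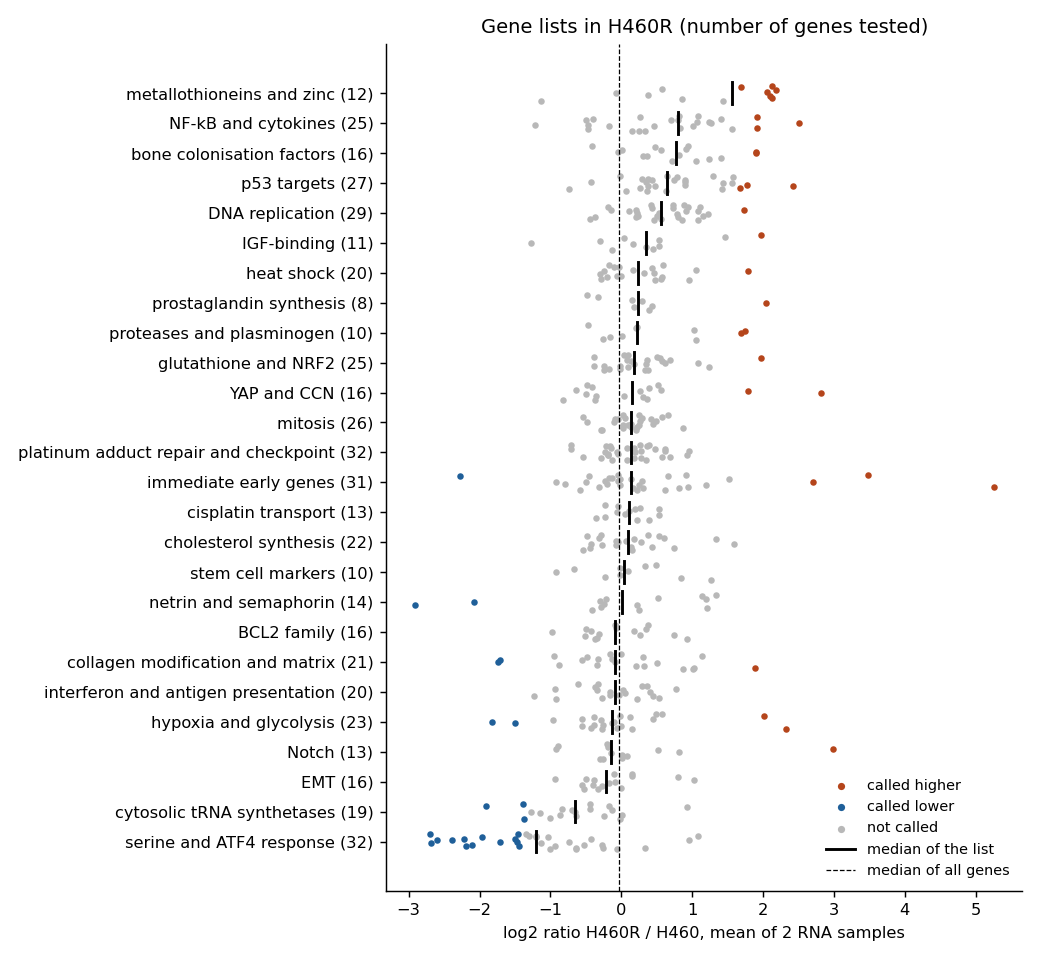
Log2 ratio of H460R over H460 (x axis, mean of 2 RNA samples) for the tested genes of each list, 1 point per gene, with the list's median as a bar and the median of all genes (−0.03) as a dashed line. Of the lists plotted, metallothioneins and zinc has the highest median (1.56) and the serine and ATF4 response the lowest (−1.20), and lists such as cisplatin transport and BCL2 family hold no called gene.

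HES1, the classical Notch target and a transcriptional repressor, read 2.88 and 2.95, then 2.68 and 3.44, and was 7.93-fold higher (Rank Products FDR = 0.00119, exact distribution). H460 signal was above background on 3 of 4 arrays, and another HES1 probe was called at 1.63. None of the other 12 Notch genes tested was called. The receptors lay between −0.93 and −0.14, the ligand JAG1 at 0.82 ± 0.14, and the target HEYL at −0.89. The matricellular CCN family held 2 called genes among 4 tested, CCN5 and CCN1. CCN5 read 2.75 and 3.11, then 2.58 and 2.83 (7.05-fold, FDR = 0.00144), and CCN1 1.83 and 1.70, then 1.88 and 1.73 (3.45-fold, FDR = 0.0312). Another CCN1 probe read 1.37 and was not called. CCN2, which shares many inducers with CCN1, stood at 0.30 ± 0.26. None of the 6 YAP, TAZ and TEAD genes was called.

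Several secreted and surface proteins of inflammation were upregulated. LY96 (MD-2), the co-receptor with which TLR4 recognizes lipopolysaccharide, read 2.62 and 2.50, then 2.39 and 2.54, and was 5.71-fold higher (FDR = 0.00315). TLR4 itself was on the array but was not kept for testing. The chemokine CXCL2 was 3.77-fold higher (FDR = 0.0226), with a further probe at 1.47 that was not called. INHBA, the activin A subunit, was 3.76-fold higher (FDR = 0.0227). These were the 3 calls among 25 NF-kB and cytokine genes, whose median was 0.80. All 8 chemokines tested lay above 0, against 46.9% of all genes, and 1 was called (12.5%, against 0.525%). However, 2 of the 8 passed the background filter through the H460R channel alone. CXCL8 (1.40 ± 0.23) and IL6 (1.23 ± 0.15) did not pass. CXCL5 stood at 1.56 ± 0.15 at its brightest probe (FDR = 0.0686), whereas another probe read 2.34 and was called (FDR = 0.00544). The NF-kB subunits and inhibitor NFKB1, NFKB2, RELB and NFKBIA lay between −0.51 and −0.40. PTGS2, the inducible cyclooxygenase, was 4.13-fold higher (2.05 ± 0.17, FDR = 0.0151), and none of the other 7 prostaglandin genes was called.

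Of 27 listed factors linked with bone colonization, 16 were tested, and TNFSF11 (RANKL), IL11 and MMP13 were among those not tested. Of the 16, 14 lay above 0 (87.5%, against 46.9% of all genes). Called higher were 2 (12.5%, against 0.525% of all genes). The background filter was passed by 2 of the 16 through the H460R channel alone. TNFRSF11B, the osteoprotegerin decoy receptor for RANKL, was 3.72-fold higher (1.90 ± 0.03), with another probe at 1.37 that was not called. DKK1, a secreted WNT inhibitor, read 0.88 and 2.48 in sample 1 and 1.39 and 2.85 in sample 2 (1.90 ± 0.31, FDR = 0.0227), so its arrays spread widely but none lay below 0. With H460R in Cy3 alone 1 of the 2 calls was kept. PTHLH, the parathyroid hormone-like peptide of osteolysis, stood at 0.36, CXCR4 at 0.47 and SPP1, osteopontin, at 0.94 ± 0.34. RSPO3, a WNT amplifier, read 3.18 and 2.00, then 3.08 and 1.82 (2.52 ± 0.10), and its other probe at 1.58 was not called.

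Matrix and protease genes went both ways. PLOD2, a lysyl hydroxylase that sets collagen crosslinks, was 3.70-fold higher (FDR = 0.0227), whereas PLOD1 (−0.09), PLOD3 (−0.48) and the lysyl oxidase LOXL2 (−0.88) were not called. COL6A1 and the fibrillin FBN2 were 3.29-fold and 3.34-fold lower, and FBN1 stood at 1.14 ± 0.07. PLAU, the urokinase protease, was 3.36-fold higher (FDR = 0.0345). SERPINE2, its inhibitor, read 1.09 and 2.81, then 1.83 and 1.01 (1.69 ± 0.37, FDR = 0.0425), with H460R saturated on 3 of 4 arrays. The collectin scavenger receptor COLEC12 was 4.02-fold higher (FDR = 0.0158), and IGFBP1, which binds insulin-like growth factors, 3.90-fold (FDR = 0.0183).

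The hypoxia list split. ADM, the vasodilator adrenomedullin, was 5.01-fold higher (1.99 and 2.56, then 2.08 and 2.67), and the carbonic anhydrase CA12 4.04-fold, with another CA12 probe at 1.31 that was not called. CA9, a carbonic anhydrase that hypoxia induces strongly, read −1.28 and −1.54 in sample 1 and −2.07 and −2.41 in sample 2 (−1.83 ± 0.59, FDR = 0.011). All arrays of CA9 lay below 0, but its SD was the widest of all called genes. The glucose transporter SLC2A3 was 2.83-fold lower, with another probe at −0.85 that was not called, and VEGFA stood at 0.16. Of 23 genes tested, the median was −0.13. PDK4, a kinase that blocks pyruvate oxidation, read 2.05 and 2.46, then 2.03 and 2.51, and was 4.80-fold higher (FDR = 0.00794).

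UNC5B, a netrin receptor of the dependence class, which can trigger death without its ligand, had the lowest ratio of all genes. It read −2.81 and −2.75, then −2.87 and −3.21, and was 7.52-fold lower (FDR = 4.22e-05). SEMA3B, a secreted semaphorin, was 4.21-fold lower (FDR = 0.00414). These were the calls among 14 netrin and semaphorin genes, and NTN4 (1.34 ± 0.07), SEMA3C (1.21 ± 0.09), SEMA3A (1.14 ± 0.03) and the co-receptor NRP1 (1.20 ± 0.02) lay above 0 without passing. CTNND2, a delta catenin, and KLHDC7B were called at −2.06 and −2.50 ± 0.13.

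Proliferation, differentiation and stress chaperone lists held few calls. None of 26 mitosis genes was called by Rank Products (median 0.14, with 2 higher at an unadjusted p under 0.05, and 10 higher and 3 lower by limma). Of 29 replication and G1/S genes, 25 lay above 0 (86.2%, against 46.9% of all genes), with a median of 0.56. E2F7, a repressor of the E2F family, was called (1.73 ± 0.26, FDR = 0.0379). PCNA (1.22 ± 0.02), GINS2 (1.15 ± 0.01) and CCND1 (1.08 ± 0.02) did not pass, and E2F7 was not called in limma with either sample left out. None of 16 tested genes of epithelial-mesenchymal transition was called (2 higher and 1 lower unadjusted, 4 and 9 by limma). FN1 stood at 1.03, VIM at −0.40 (another probe −1.15) and TJP1 at −0.53. Of the 22 genes listed, CDH1, CDH2 and TWIST1 were among those not tested. None of 10 tested stem cell markers was called (2 and 2 unadjusted, 4 and 3 by limma), with ALCAM at 1.27 (another probe 0.31) and CD44 at −0.23. Of the 19 markers listed, PROM1 (CD133), ABCG2 and CD24 were among those not tested, so these values say nothing of them. None of 20 interferon and antigen presentation genes was called (1 and 4 unadjusted, 7 and 9 by limma), and none of 22 cholesterol synthesis genes (3 and 0 unadjusted, 8 and 7 by limma). HSPB3, a small heat shock protein, was the call among 20 heat shock genes. It read 1.89 and 1.08, then 2.12 and 2.05 (FDR = 0.032). Its H460 signal was above background on no array, and on normexp-corrected channel signals, a normalization other than that of the deposited ratios, its fold was at least 3.56. Among long noncoding RNAs, SNHG1 was called (−1.42 ± 0.07). MALAT1 stood at 1.45 ± 0.31 (FDR = 0.0917) at its brightest probe, saturated in H460R on 3 of 4 arrays, while probes of it at 2.00 and 3.11 were called and one at 1.05 was not.

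The study names 37 genes in its account of H460R, of which 33 were tested, 16 were called higher and 4 lower. A list in the study gave 15 of them as higher and 4 as lower, from these same arrays. Their count is therefore no independent evidence of direction. The other 18 are named elsewhere in the study, some for reasons other than these arrays. Among them, JUN, MALAT1 and AKAP12 were also reported as higher in H460R from these arrays. Their ratios are no independent evidence either. Among all 37 genes, EPS8, an actin regulator (1.86 ± 0.16), and AKAP12, a kinase anchor (1.81 ± 0.09), were called higher. Another AKAP12 probe read 0.24 and was not called. In the rank order of higher genes GLIPR1, a secreted CRISP-family protein (2.33 ± 0.07), and TTN, the muscle titin, also stood among the first 15. TTN read 3.02 and 3.16 with H460R in Cy3 but 1.29 and 1.24 in Cy5, and was not called on the Cy5 arrays alone. Another GLIPR1 probe read 1.46 and was not called.

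**Figure D5:**
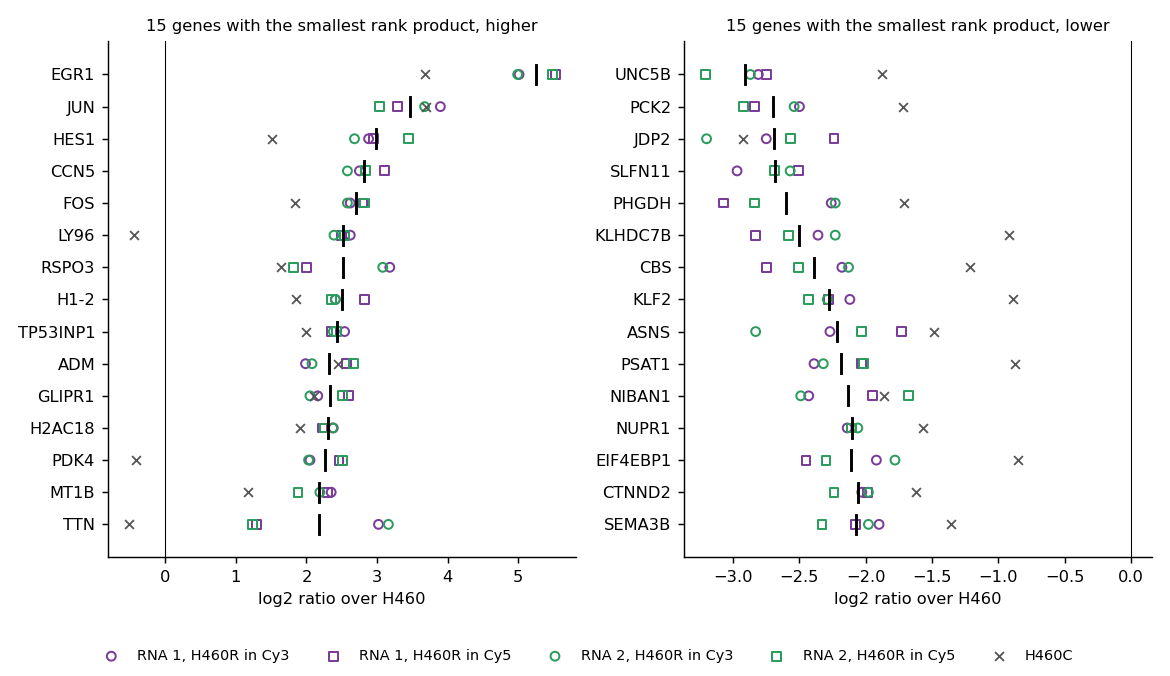
Log2 ratio over H460 (x axis) on each of the 4 H460R arrays (circles with H460R in Cy3, squares in Cy5, purple for sample 1 and green for sample 2), their mean (bar) and H460C (cross) for the 15 genes ranked first for higher and the 15 ranked first for lower expression. No H460R array crosses 0 for any of the 30 genes, which were ranked on these same arrays. H460C lies below 0 for LY96, PDK4 and TTN.

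H460C gave the only other derivative of H460 with which to set these values side by side. It shares the H460 RNA, differs from H460R in culture medium and attachment, and was hybridized on another slide, so population, culture and slide cannot be told apart. The 2 H460R samples were kept apart, although their difference correlated only weakly between the Cy3 and the Cy5 arrays (r = 0.23 across probes). The 2 H460C samples were counted as 1, because earlier results of these data found that they differed by less than the hybridization noise. H460C therefore adds no spread to the limma fit, whose 1 residual degree of freedom comes from the 2 H460R samples. The direct difference between H460R and H460C passed limma's adjusted p of 0.05 for 7900 of 18631 genes, a background of 42.4%, and for 1487 the difference was over 1 in size. Of the 98 genes called higher, 97 had an H460C value, and it was above 0 for 74 of them and differed from H460R for 86. Of the 95 called lower, 94 had one, below 0 for 82 and different for 72. The called genes were chosen for extreme H460R ratios, which also enter the difference. A share of differing genes above the background is therefore no separate evidence.

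JUN was alike in size in both populations (3.47 in H460R, 3.69 in H460C, limma adjusted p = 0.258), and so were ADM (2.32 and 2.44) and WARS1 (−1.92 and −1.99, adjusted p = 0.494). A p above the threshold does not show equality. EGR1 was also high in H460C (3.68), but higher in H460R by 1.57 (SE 0.07, adjusted p = 0.00391). PHGDH stood at −2.60 against −1.72 and PSAT1 at −2.19 against −0.88. Over the serine and ATF4 list the H460C median was −0.57, and 20 of the 31 genes with a value were lower in H460R than in H460C by the test, 3 higher. The 8 metallothioneins had an H460C median of 1.16, and 7 were higher in H460R by the test. Signs were opposite for LY96 (2.51 against −0.44), PDK4 (2.26 against −0.42), IGFBP1 (1.97 against −0.55), DKK1 (1.90 against −0.62), COLEC12 (2.01 against −0.25) and CA9 (−1.83 against 1.59). PTGS2 (2.05 against 3.98), AKAP12 (1.81 against 2.84) and INHBA (1.91 against 3.03) were higher in H460C. The median of the mitosis list was 0.14 in H460R and 1.04 in H460C, and that of cholesterol synthesis 0.10 and 1.63. No H460C value was used for CCN5 and SLFN11, which had values on 2 of the 4 H460C arrays. For PDK4, PLOD2, PCK2, GDF15, KLF2 and CHAC1, among others, the H460C value rests on 3 arrays.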

How the data were processed

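Total RNA was compared on 2-colour Agilent Whole Human Genome arrays, 4 for H460R. The authors deposited log2 ratios with unstated centring. Set against the deposited log10 ratios, signal intensity and quality flags (a score of 0 or 1) of the scanner files, all arrays ran as population over H460 and had medians from −0.02 to 0. In 1 file the decimal points had been lost, and they were restored by a power of 10. No value column lacked a sample.

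Each dye-swap pair was averaged, probes of 1 gene were read at the brightest kept probe, and the 2 ratios were tested against 0 by Rank Products with the exact distribution and Benjamini-Hochberg adjustment over all kept probes. H460R minus H460C was fitted in limma 3.58.1 (R 4.3.3) with 1 residual degree of freedom. Where a probe was below background in a whole group, its fold is a lower bound on normexp-corrected signals, set against the measurable limit. RefSeq named 16309 of the kept probes. Spots flagged as outliers were left out of the deposited ratios as well as of the scanner alternatives, and 23713 kept probes had all H460R ratios. The code was tested on simulated data.

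Named were the 15 symbols ranked first by rank product for higher and for lower expression, genes the study names for H460R, members of the lists, and probes of these with another call. The members and lists were chosen with earlier results of these data known. Alternatives were other background corrections and normalizations, probe filters, single dyes, gene means, limma and leaving out each sample.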

Additional observations from a re-analysis of the deposited data

Results flagged for a closer look

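For 22 of the 28 leading genes with an H460C value, H460R and H460C differed against the same H460 RNA (limma adjusted p 0.00369 to 0.0284 with SE 0.0679 to 0.149, on a background of 42.4% of genes). The leading genes were chosen for extreme H460R ratios, which also enter the difference, so their share is no separate evidence. Population, culture and slide cannot be told apart in these differences. The log2 ratio was higher in H460R by 2.95 for LY96, 2.69 for TTN, 2.68 for PDK4, 1.57 for EGR1, 1.48 for HES1, 1.00 for MT1B, 0.88 for RSPO3, 0.87 for FOS, 0.65 for H1-2, 0.44 for TP53INP1 and 0.41 for H2AC18. The difference of H460R minus H460C was −0.44 for CTNND2, −0.54 for NUPR1, −0.72 for SEMA3B, −0.89 for PHGDH, −0.98 for PCK2, −1.03 for UNC5B, −1.18 for CBS, −1.26 for EIF4EBP1, −1.31 for PSAT1, −1.39 for KLF2 and −1.58 for KLHDC7B.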

How the results depend on the processing

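The leading genes, the genes the study names, 8 of the lists and the counts of calls were recomputed under the alternatives, and of these only DUSP6, which was not called, changed sign (0.28 on the Cy3 arrays alone). Other genes named in the report were not recomputed. Without a background filter 129 genes were called higher and 149 lower. Limma on the 2 ratios called 6208 higher and 6823 lower at an adjusted p of 0.05, and against a minimum log2 change of 1 it called 258 and 160. With the same minimum in limma, leaving out a sample gave 78 to 101 higher and 36 to 41 lower calls, with 64 and 71 of the 98 and 38 and 36 of the 95 genes shared. The scanner software's own log ratios called 92 and 102 genes but shared only 28 and 50 with the main calls, the cause was not tested, and H1-2, ADM, PDK4, MT1B, PTGS2, MT1X, CCN1 and PLOD2 were among the calls lost. On the Cy3 arrays alone 58 and 61 calls were shared, and on the Cy5 arrays alone 70 and 62. With a sample left out the lone one is assumed to vary like H460C. CCN5, PDK4, PCK2, SLFN11, KLF2, PLOD2, COLEC12 and HSPB3 then lost their calls with either sample out, and the first 6 miss the value of at least 1 H460C array, which leaves them no spread of their own in that fit.

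The replicate numbers do not pair the samples (correlation of deviations 0.04 for number 1). Between H460R and H460C 7900 genes differed with H460C as 1 sample, 11711 with H460C as 2 samples and 10917 with these 2 samples and the replicate block. With an H460R sample left out, and H460C as 2 samples, 11806 to 11908 differed.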

Other observations

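3 groups of genes outside the lists, histones, HLA class II and ribosomal proteins, were looked at after their values were seen. Histone genes leaned upward, with 42 of 58 tested above 0 (72.4%, against 46.9% of all genes) and a median of 0.45. Called higher were 3 (5.17%, against 0.525%), the linker histone H1-2 (2.50 ± 0.16) and the core histones H2AC18 (2.31) and H2AC7 (1.69). The H460C median was 0.40. Another H2AC18 probe read 1.44 and was not called, and histone copies are near-identical, so probes may read several of them.

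HLA class II genes, which present peptides to T helper cells, held 2 of 11 called lower, HLA-DRB1 (−1.55 ± 0.09, Rank Products FDR = 0.0248, exact distribution) and HLA-DRB5 (−1.66 ± 0.16, FDR = 0.0153), which are close copies. H460C read −1.69 and −1.91 for them. Of 80 ribosomal protein genes tested, 70 lay below 0 (87.5%, against 53% of all genes), with a median of −0.185 and none called. Many of their signals were saturated on some arrays.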
